A study of Mus musculus with 6 samples.

Results

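Acyl-CoA thioesterases were followed in mouse liver through 8 genes: Acot1, Acot2, Acot3, Acot4, Acot7, Acot8, Acot12 and Acot13. Every probe that the platform annotation assigns to these symbols was taken, which gave 18 of the 45281 probes on the array, for 8 of the 19057 genes it names. The 6 arrays were Illumina expression bead arrays, each hybridised with liver RNA pooled from 4 C57BL/6J mice aged 18 weeks. Mice ate the diet labelled regulatory chow, with vehicle per the labels (RC), a high-fat diet with vehicle (HFD) or a high-fat diet with nobiletin (NOB), and each arm was sampled at zeitgeber time (ZT) 2 and ZT14, 2 h after lights on and 2 h after lights off. Nobiletin, a citrus flavone, was given by mouth at 200 mg/kg on alternate days for 10 weeks. The treatment protocol names vehicle for the high-fat mice only, so whether chow mice were also dosed by mouth is not settled, and HFD minus RC may differ by dosing as well as diet. The NOB array of ZT14 has a source name that reads ZT214, and its title and time label give ZT14. Pooling averages the 4 mice, so their spread was not measured, and each arm at each time is a single array.

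Acyl-CoA thioesterases split fatty acyl-CoA into free fatty acid and CoA, the reverse of the reaction that activates fatty acids. The closely related type I enzymes work in different compartments: in mouse, Acot1 is cytosolic, Acot2 mitochondrial, and Acot3 and Acot4 peroxisomal. Acot7, Acot12 and Acot13 have another fold, that of the hotdog domain. In rodent liver several type I genes are known to rise with fasting, fat feeding and agonists of PPAR-alpha, the fatty acid receptor of hepatocytes. In the RefSeq annotation, Acot2, Acot1, Acot4, Acot3, Acot5 and Acot6 lie in that order on chromosome 12, with only the non-coding gene Gm40474 and the pseudogene Gm8385 among them.

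A probe counted as detected when its detection p, set against the negative controls of its array, lay under 0.01. Of the 18 probes, 15 were detected on at least 2 arrays and all 8 genes kept at least 1 probe. The 3 that did not pass were the third probes of Acot1 and Acot2 and the second probe of Acot12, which were detected on 0 arrays. Their raw signals lay between 49.6 and 70.4, beside array medians of 57.5 to 62.4. Levels below are background-corrected, quantile-normalised log2 intensities. The lowest level among detected probes was 4.85 to 5.11 on the 6 arrays, and the highest level was 14.59. A level belongs to its probe, so levels of different probes were not set against each other.

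The high-fat diet was compared with chow to find which thioesterases followed the diet. With both times fitted together, Acot3, Acot4 and 1 of the 2 measured probes of Acot2 were called higher on the diet. Of the 15 probes, 0 were called lower. The Acot2 probe was detected on the HFD arrays only, so it passed the detection filter through the arm where it is high. With only probes detected on all 6 arrays fitted, 2 member probes were called. The 3 probes of 15 called higher stand beside 3.91% of all 14416 detected probes called higher and 2.38% called lower (limma, adjusted p under 0.05). At an unadjusted p under 0.05 there were 5 of the 15 and 3367 of all. Acot1, Acot7, Acot8, Acot12 and Acot13 did not pass. The median difference of the 15 probes was 0.27, and that of all detected probes was -0.02. The HFD and RC arrays did not overlap for 7 of the 15 probes, 5 higher and 2 lower, where 24.7% of all probes did not overlap in the higher and 26.9% in the lower direction.

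Acot3, a peroxisomal thioesterase of medium- to long-chain acyl-CoA in mouse, had the largest difference of the 15 probes. Its level was 6.92 in RC, 7.99 in HFD and 8.68 in NOB at ZT2, and 6.95 in RC, 9.78 in HFD and 9.83 in NOB at ZT14. All 4 high-fat arrays lay above both chow arrays, and the ZT14 arrays were the highest in each high-fat arm. HFD minus RC was 1.95 ± 0.36 (SE), a 3.86-fold difference with adjusted p = 0.0240. By time, the difference was 1.07 at ZT2 and 2.82 at ZT14.

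Acot4, which in mouse peroxisomes acts on succinyl-CoA and other dicarboxylyl-CoA, stood at 6.86 in RC, 7.82 in HFD and 7.93 in NOB at ZT2. At ZT14 its level was 7.06 in RC, 8.77 in HFD and 8.66 in NOB. The order of the arrays resembled that of Acot3, with chow lowest at both times. The difference on the diet was 1.34 ± 0.20 (2.52-fold, adjusted p = 0.0125), or 0.96 at ZT2 and 1.71 at ZT14. Leaving out chow at ZT14 ended the calls of Acot3 (1.23, adjusted p = 0.0717) and Acot4 (1.01, adjusted p = 0.0590), as did leaving out HFD at ZT14 (1.36 and 1.10, adjusted p = 0.192 and 0.152). Leaving out each array in turn, the differences ran from 1.23 to 2.66 for Acot3 and from 1.01 to 1.66 for Acot4, highest without chow at ZT2. The calls also ended with no detection filter (adjusted p = 0.194 and 0.116) and with no term for the time (adjusted p = 0.112 and 0.0818).

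The chow array of ZT14, which enters the larger ZT14 difference, also carried more skeletal muscle transcripts. Of 15 muscle markers 12 were measured, with Ckm, Myh4 and Myh2 undetected, and their summed linear level was 6097 on that array, 1145 on the HFD array of the same time and 214 to 293 on the other 4. Their part in the ZT14 differences was not tested. At ZT2 the muscle sums were 265 in RC and 293 in HFD, and the Acot3 and Acot4 differences, of 1 array against 1 array, were 1.07 and 0.96.

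Because Acot3 and Acot4 are neighbours and moved together, the bases before their starts are shown, from RefSeq on GRCm38.p6. RefSeq gave promoter windows for 7 of the 8 genes, 8 windows in all, each with 250 bases before and 50 bases after a transcript start. They were searched on both strands for AGGTCA, the hexamer that PPAR and its partner RXR bind, and for its direct repeat with 1 base between the copies, allowing 2 mismatches. The hexamer counts include those within a repeat. The 250 bases before each start follow 5′ to 3′ on the plus strand, with matches in capitals, Acot3 at chr12:84051894-84052143 and Acot4 at chr12:84038129-84038378.
Acot3: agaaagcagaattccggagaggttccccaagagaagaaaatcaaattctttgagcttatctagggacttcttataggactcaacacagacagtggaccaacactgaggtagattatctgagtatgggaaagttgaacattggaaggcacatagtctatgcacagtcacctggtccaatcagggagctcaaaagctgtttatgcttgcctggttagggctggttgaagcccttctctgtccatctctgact
Acot4: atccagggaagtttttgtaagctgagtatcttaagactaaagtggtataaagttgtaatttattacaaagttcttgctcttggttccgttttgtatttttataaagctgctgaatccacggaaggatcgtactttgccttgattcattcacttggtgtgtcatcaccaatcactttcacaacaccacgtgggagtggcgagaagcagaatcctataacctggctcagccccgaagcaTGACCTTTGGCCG
The Acot4 window holds a repeat on the minus strand with 2 mismatches, TGACCTTTGGCCG as read on the plus strand, which begins 13 bases before the start. The stretch shown for Acot3 holds no match, and a single hexamer lies 18 bases past the first of its 2 starts. Among the 8 windows 4 held the hexamer, against 16.3% of all 32851 windows, and 2 held the repeat, those of Acot4 and Acot12, against 3.86%. Acot3 supplied 2 of the 4, overlapping windows around the same hexamer. A match is a description of the letters and not a site of binding.

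**Figure D1:**
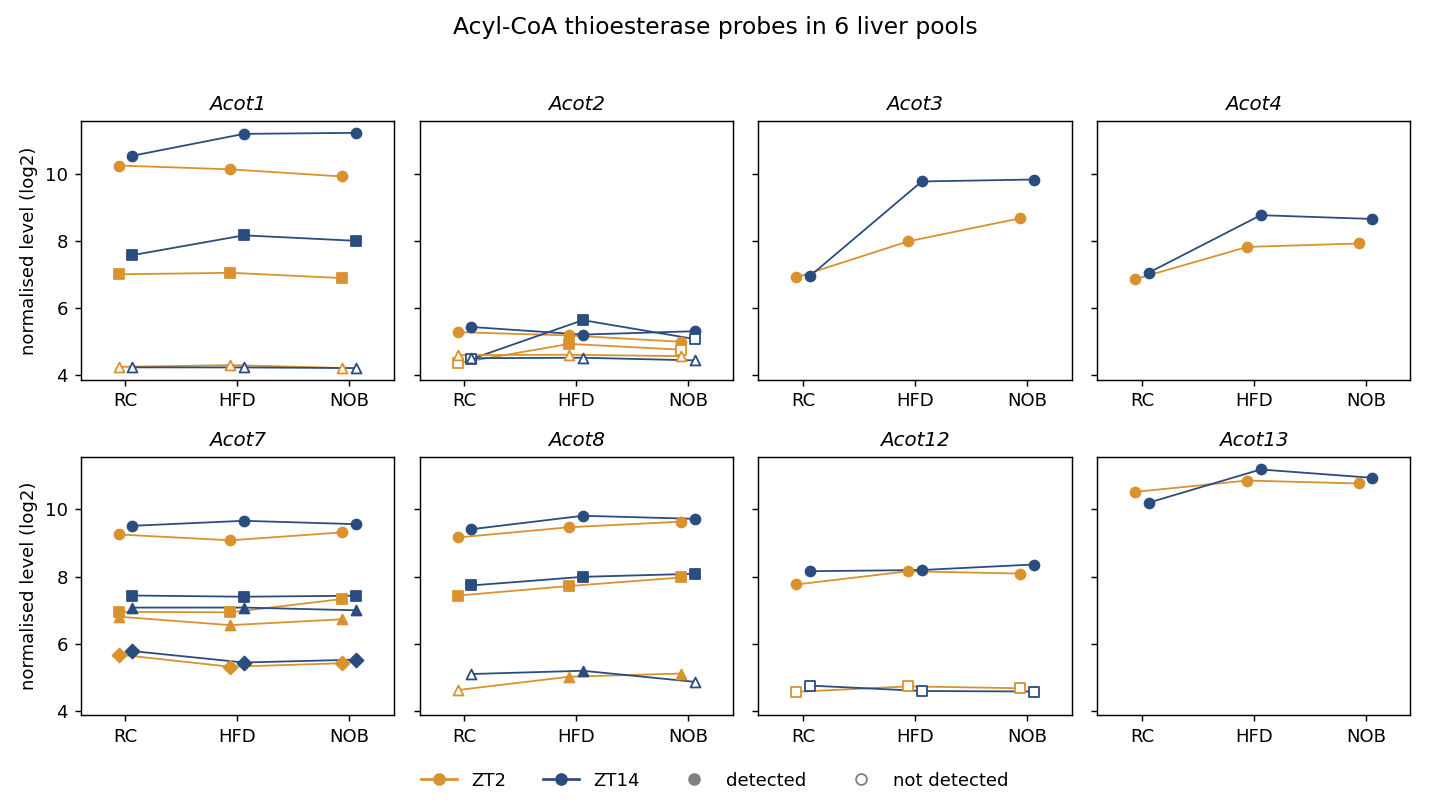
Normalised level (log2) of each of the 18 probes by diet arm (RC, HFD, NOB), with ZT2 in orange and ZT14 in blue; marker shapes are different probes of a gene, filled where detected. Acot3 lay at 6.92 and 6.95 on chow and between 7.99 and 9.83 on the high-fat arrays, while the brightest Acot7 probe spanned 0.58 over all arrays.

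Acot2, the mitochondrial matrix thioesterase, was measured by 2 probes that disagreed. The probe ILMN_2745889 was undetected in chow, at 4.36 and 4.48, and detected on both HFD arrays, at 4.93 for ZT2 and 5.64 for ZT14. Under nobiletin it missed the detection cut-off, at 4.76 for ZT2 and 5.08 for ZT14, both above the chow levels. HFD at ZT2 passed the cut-off narrowly and NOB at ZT14 missed it narrowly. The undetected 5.08 lay above the detected 4.93, so the detection calls do not separate NOB from HFD. Measured against the background of the chow arrays, this probe was at least 1.16-fold higher on the diet (fitted difference 0.87 ± 0.18, adjusted p = 0.0363). At ZT2 alone no bound could be given, since 4.93 in HFD lies below 5.03, the lowest detected level of chow at ZT2. The other probe, ILMN_2840492, was detected on all 6 arrays and lay at 5.28 and 5.44 in RC, 5.18 and 5.21 in HFD, and 4.99 and 5.31 in NOB. Its difference on the diet was -0.16 ± 0.15 (adjusted p = 0.569), and across the 6 arrays the 2 probes correlated at r = -0.245. Both lie near the detection limit, and the call of the first ended with no background correction (0.44, adjusted p = 0.0655), with a larger offset of 50 (0.41, adjusted p = 0.0956) and with median scaling (0.64, adjusted p = 0.103). It also ended with no detection filter (adjusted p = 0.149), with no term for the time (adjusted p = 0.104), and on leaving out HFD at ZT2 (adjusted p = 0.0811), chow at ZT14 (adjusted p = 0.168) or HFD at ZT14 (adjusted p = 0.337). The Acot2 call rests on this 1 dim probe, which passed the detection filter only through the HFD arrays.

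Acot1, the cytosolic long-chain thioesterase, did not pass for the diet or for the time of day, and its levels were set apart by time. Its brighter probe stood at 10.25 in RC, 10.14 in HFD and 9.92 in NOB at ZT2, and at 10.54 in RC, 11.20 in HFD and 11.23 in NOB at ZT14. Its other detected probe stood at 7.01, 7.05 and 6.89 at ZT2, and at 7.58, 8.17 and 8.01 at ZT14, in the same order of arms. The lowest ZT14 array lay above the highest ZT2 array on both probes, and the probes correlated at r = 0.979 over the 6 arrays. Such a gap between the times is not particular to Acot1. It was also seen on probes of Acot7 and Acot12. The share over all probes was not counted, so the gap is given as a description only. The diet differences over both times were 0.27 ± 0.24 and 0.32 ± 0.18 and did not pass (adjusted p = 0.545 and 0.344). At ZT2 they were -0.11 and 0.05, and at ZT14 they were 0.65 and 0.59.

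Acot13, a small thioesterase found with mitochondria that binds the phosphatidylcholine transfer protein Pctp, was measured by a single bright probe. It stood at 10.53 in RC, 10.86 in HFD and 10.78 in NOB at ZT2, and at 10.20, 11.19 and 10.94 at ZT14. Every high-fat array lay above both chow arrays, and the HFD array was the highest at each time. The difference on the diet was 0.66 ± 0.19 (1.58-fold) and did not pass (adjusted p = 0.0869). It was 0.34 at ZT2 and 0.99 at ZT14, and on leaving out each array in turn it ran from 0.38 to 0.94. It passed in 1 of 16 alternatives, on leaving out chow at ZT2 (adjusted p = 0.0383), and the highest adjusted p was 0.514, without HFD at ZT14.

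Acot8, a peroxisomal thioesterase of broad range that also acts on bile acid CoA esters, lay slightly higher on the diet on all 3 probes. The brightest stood at 9.16 in RC, 9.47 in HFD and 9.64 in NOB at ZT2, and at 9.41, 9.81 and 9.72 at ZT14. The HFD minus RC differences of its probes were 0.35 ± 0.15, 0.27 ± 0.15 and 0.25 ± 0.20, and did not pass (adjusted p = 0.216, 0.320 and 0.493). The dimmest of the 3 was undetected in chow. Acot12, a cytosolic acetyl-CoA hydrolase of liver, had 1 detected probe, at 7.76 in RC, 8.16 in HFD and 8.09 in NOB at ZT2 and at 8.16, 8.20 and 8.36 at ZT14. The lowest of these was chow at ZT2, the arms overlapped, and the difference on the diet was 0.22 ± 0.16 (adjusted p = 0.460).

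Acot7, a cytosolic enzyme of long-chain and arachidonoyl-CoA that is abundant in brain, was measured by 4 probes detected on all 6 arrays. The brightest stood at 9.26 in RC, 9.08 in HFD and 9.32 in NOB at ZT2, and at 9.51, 9.66 and 9.56 at ZT14. Its range over the 6 arrays was 0.58. The 4 diet differences were between -0.35 and -0.01, with adjusted p of 0.197 to 0.970. Of 7 neuronal markers 5 were undetected, Snap25, Tubb3, Stmn2, Nefl and Gap43, and 1 of the other 2 was called lower on the diet. The summed level of those 2 was 171 and 157 in RC, 88.2 and 63.4 in HFD, and 105 and 93.4 in NOB at ZT2 and ZT14, and its part in the Acot7 values was not tested.

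**Figure D2:**
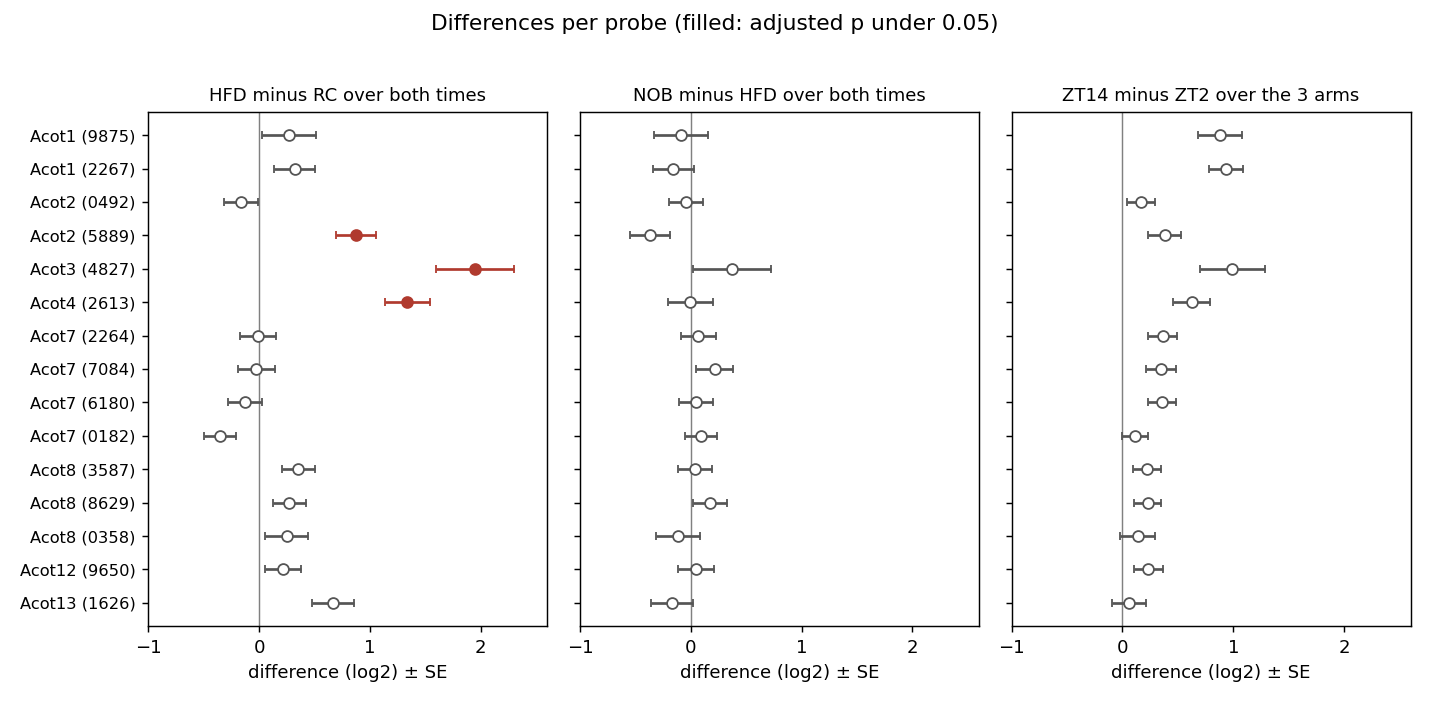
Fitted difference (log2) with its SE for each of the 15 detected probes, named by gene and the last 4 digits of the probe, in 3 comparisons: HFD minus RC, NOB minus HFD, and ZT14 minus ZT2. Filled points passed an adjusted p of 0.05, and these are Acot2, Acot3 and Acot4 on the diet, at 0.87, 1.95 and 1.34.

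Differences from chow were also read at each time, as values of 1 array against 1 array with no replicate check. At ZT2, 2 of the 15 probes were at least 1.5-fold higher in HFD than in RC, namely Acot3 and Acot4, where 7.14% of all detected probes were. At ZT14 there were 6 by normalised values, background included, where 10.5% of all were, counted in the same way. They were Acot3, Acot4, Acot13, both Acot1 probes and the dim Acot2 probe. The Acot2 probe was undetected in chow and was at least 1.44-fold higher at ZT14, so that 5 were measured as 1.5-fold higher. No probe of the 15 was 1.5-fold lower at either time, against 5.77% and 7.88% of all. Whether the diet difference depends on the time could not be tested with 1 array in each group.

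**Figure D3:**
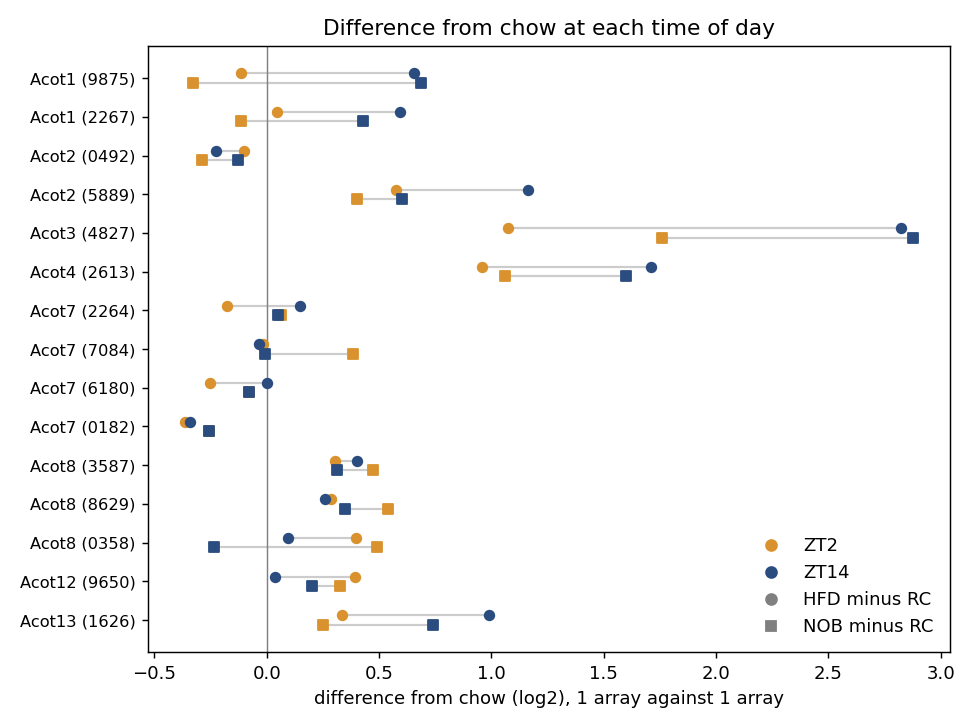
Difference from chow (log2) for each detected probe at ZT2 (orange) and ZT14 (blue), as circles for HFD and squares for NOB, each point 1 array against 1 array, undetected values included. Acot3 lay at 1.07 and 2.82 in HFD and at 1.76 and 2.88 in NOB, and the brighter Acot1 probe changed from -0.11 to 0.65 in HFD.

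The NOB and HFD arms, which differ by the compound alone in the labels, were compared to see whether nobiletin altered these genes. With limma, 0 of the 15 probes passed, and 0 had an unadjusted p under 0.05. Over all probes 25 passed, which is 0.173%, and 1215 had an unadjusted p under 0.05. The differences lay between -0.37 and 0.37, with a median of 0.04. This comparison shares the HFD arrays with that of HFD and RC, so the values of each are given and not related.

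Acot3 was 0.37 ± 0.36 under nobiletin (adjusted p = 0.879), with 0.69 at ZT2 and 0.06 at ZT14. Its ZT2 value alone among the 15 probes reached 1.5-fold at either time, beside 2.58% of all probes higher and 3.61% lower at ZT2, and 2.4% and 3.52% at ZT14. Acot4 lay at -0.01 ± 0.20, Acot13 at -0.17 ± 0.19 and the Acot1 probes at -0.09 ± 0.24 and -0.16 ± 0.18, none of which passed. The dim Acot2 probe was detected on both HFD arrays and neither NOB array. Measured against the detection limit, its mean was at least 1.23-fold lower under nobiletin (fitted -0.37 ± 0.18, adjusted p = 0.673), which did not pass. The arms overlapped on this probe, with NOB at ZT14 (5.08) above HFD at ZT2 (4.93). The Acot7 probes lay between 0.05 and 0.21, the Acot8 probes between -0.12 and 0.17, Acot12 at 0.05 and the other Acot2 probe at -0.04.

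Acot3 and Acot4 were also higher in the nobiletin arm than in chow. Acot3 differed by 2.32 ± 0.36 (adjusted p = 0.0332) and Acot4 by 1.33 ± 0.20 (adjusted p = 0.0328). These 2 of 15 probes stand beside 0.541% of all probes called higher. Acot13 at 0.49, the Acot8 probes at 0.39 and 0.44 and the dim Acot2 probe at 0.50, undetected in both arms, did not pass. Leaving out chow at ZT14 ended these calls (1.61 and 1.01, adjusted p = 0.0785 and 0.126), as did leaving out NOB at ZT14 (adjusted p = 0.196 and 0.229) or at ZT2 (adjusted p = 0.0582 and 0.0671), and that of Acot4 ended on leaving out HFD at ZT14 (adjusted p = 0.0516). They also ended with no detection filter (adjusted p = 0.291 and 0.231) and with no term for the time (adjusted p = 0.172 and 0.190).

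The arrays of ZT14 were compared with those of ZT2 over the 3 arms to follow time of day. All 15 probes lay higher at ZT14, with a median of 0.35 against -0.00 for all probes, yet 0 passed limma, beside 0.146% of all probes. At an unadjusted p under 0.05 there were 8 of the 15, and 1533 of all 14416. The largest were those of Acot1 and Acot3, at 0.88 ± 0.20 and 0.93 ± 0.15 for Acot1 (adjusted p = 0.179 and 0.0905) and 0.99 ± 0.29 for Acot3 (adjusted p = 0.297). Acot4 was at 0.62 ± 0.17 (adjusted p = 0.250), and Acot7 at 0.36, 0.35, 0.35 and 0.11 on its 4 probes. Acot13 had the smallest value, 0.06 ± 0.16.

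Within the arms, the day-night difference of Acot3 was 0.04 in RC, 1.79 in HFD and 1.16 in NOB. That of Acot4 was 0.19 in RC, 0.95 in HFD and 0.73 in NOB, and those of the brighter Acot1 probe were 0.29, 1.06 and 1.30. For these genes the chow pair of arrays differed least. At least 1.5-fold higher at ZT14 were 0 of 15 probes in RC, 5 in HFD and 4 in NOB, where 4.16%, 2.97% and 3.55% of all probes were. The difference between arms was not tested.

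Probes of the type I genes can bind each other's transcripts, since the genes are closely similar in sequence. Probe sequences were not used here, so cross-hybridisation of Acot1 to Acot4 was not tested, and values of these genes may include signal from a relative. As a description over the 6 arrays, which share samples and normalisation, Acot3 and Acot4 correlated at r = 0.987. The dim Acot2 probe correlated with them at 0.874 and 0.924, and the Acot1 probes with Acot3 at 0.642 and 0.635. The other Acot2 probe correlated with Acot3 and Acot4 at -0.346 and -0.318. High values were not limited to type I genes. The brightest Acot8 probe correlated with Acot3 and Acot4 at 0.933 and 0.945, and Acot13 at 0.877 and 0.895. Lower values were those of Acot12, at 0.698 and 0.747, and of the brightest Acot7 probe, at 0.530 and 0.498. The Acot1 probes, Acot3 and Acot4 all lay higher at ZT14 than at ZT2 in every arm. Acot3 and Acot4 had chow lowest at both times, and the Acot1 probes had NOB lowest at ZT2 and chow lowest at ZT14. Among other genes detected on all arrays and spanning at least 1 on the log2 scale, 834 were ranked by likeness over the 6 arrays. Nearest to Acot3 were Acacb, Rhpn2 and Ces1g (r = 0.984, 0.978 and 0.973), and to Acot4 Fads2, Ces1g and Mme (0.985, 0.980 and 0.978). Nearest to Acot1 were Ppp1r1b, Alpl and Ppl (0.970, 0.924 and 0.918).

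Other genes of acyl-CoA handling were read from lists, with the brightest probe standing for each gene. The diet counts of every list stand beside 3.91% of all detected probes called higher and 2.38% called lower. Of 15 further genes with thioesterase or related hydrolase activity 11 were measured, and 3 rose and 0 fell on the diet, with a median of 0.58. These were Them6 at 1.10 ± 0.15 (adjusted p = 0.00872), the lysosomal palmitoyl-protein thioesterase Ppt1 at 0.91 ± 0.15 (adjusted p = 0.0150) and Acot10, a mitochondrial thioesterase, at 0.87 ± 0.19 (adjusted p = 0.0387). Of 23 acyl-CoA synthetases, which run the opposing reaction, 13 were measured and 0 passed for the diet, with a median of -0.01. Their differences ran from -0.57 to 0.59.

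Among 14 measured of 18 genes of CoA synthesis and breakdown, 1 rose and 1 fell on the diet. Nudt7, a peroxisomal hydrolase of CoA, fell (-1.04 ± 0.18, adjusted p = 0.0204), from 13.27 and 13.24 in RC to 12.52 and 11.92 in HFD, and the vanin Vnn3 rose (0.80 ± 0.16, adjusted p = 0.0334). Of 14 genes of acyl-CoA and fatty acid binding 8 were measured and 0 passed, with a median of 0.17. Of 32 PPAR-alpha genes 27 were measured, 8 rose and 0 fell, with a median of 0.47. Among those that did not pass were Cyp4a14, Pdk4, Ehhadh and Angptl4 (adjusted p = 0.169, 0.209, 0.288 and 0.354). Fgf21, a fasting hepatokine that was undetected in the chow arm, rose by at least 13.7-fold. The lipid droplet coat gene Plin2 lay at 1.75 ± 0.25, Pex11a, which acts in peroxisome division, at 1.41 ± 0.16 and the carnitine acetyltransferase Crat at 1.31 ± 0.15. Abcd2, also undetected in chow, rose by at least 1.63-fold. Like the dim Acot2 probe, Fgf21 and Abcd2 passed the detection filter only through high-fat arrays, where they are high. Both are counted among the 8. Under nobiletin against vehicle, 0 genes of these 5 lists passed.

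**Figure D4:**
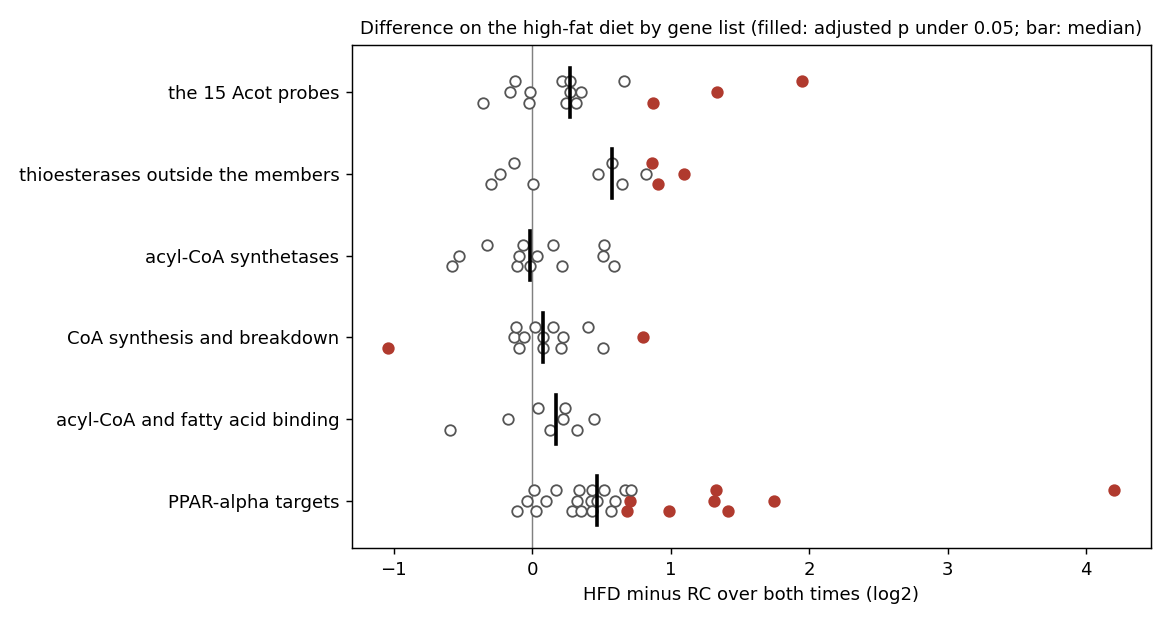
HFD minus RC over both times (log2) for the 15 Acot probes and for the measured genes of 5 lists of acyl-CoA handling, with bars at the medians and filled points for an adjusted p under 0.05. The Acot probes had a median of 0.27, the PPAR-alpha genes 0.47 and the acyl-CoA synthetases -0.01.

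The arrays carried the markers of liver. Of 9 hepatocyte markers 8 were measured, Tat being undetected, and their summed linear level was 98331 to 100261 in RC and 90163 to 96289 on the high-fat arrays. Between 28.1% and 32.0% of probes were detected on each array, and the arrays correlated at 0.961 to 0.988 over detected probes. Summed levels of Kupffer cell and macrophage markers (9 of 11 measured) were 1961 to 2741 in RC, 3125 to 3486 in HFD and 3383 to 4090 in NOB. Those of stellate cell markers (7 of 8 measured) were 2785 to 3077, 4234 to 5105 and 3685 to 3786. Of 7 adipocyte markers 3 were measured, Adipoq, Lep and Car3, with Cfd, Retn, Plin1 and Fabp4 undetected. Only 2 of the 3 were detected on the HFD array of ZT2 and on each NOB array. The 3 summed to 2996 to 3573 in RC, 5871 to 6109 in HFD and 4940 to 5957 in NOB, and 1 was called higher on the diet. Their sum may not stand for adipocytes. The Kupffer cell and stellate cell sums, and that of the 3 measured adipocyte markers, had chow below high-fat arrays, as did Acot3 and Acot4. The hepatocyte sums have the opposite order. Endothelial sums (3030 to 3500 in RC, 3234 to 3893 on the high-fat arrays) and red blood cell sums (8654 to 17819 and 7532 to 13804) overlap. The part of these sums in the differences was not tested, and in whole liver fewer cells of a type and less RNA per cell cannot be told apart.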

How the data were processed

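Average bead intensities and detection p-values were deposited by the authors for each probe, per the file headers, without background subtraction or scaling. A second deposited intensity matrix holds values that, from the values themselves, are background-subtracted and quantile normalised on a linear scale. GenomeStudio is named in the submitters' processing notes, with version and options not given in the sources used here. Intensities were processed with neqc (offset 16, quantile normalisation, log2) in limma 3.58.1 and R 4.3.3. Probes with detection p under 0.01 on at least 2 of 6 arrays (14416) were fitted together, with arm and time as additive terms, 2 residual degrees of freedom and eBayes. Tests were two-sided, with Benjamini-Hochberg adjustment over all 14416 probes. Any dependence of an arm's difference on time falls into the residual spread, together with the spread between pools and arrays. These cannot be told apart here, and the p-values do not measure the spread between mice. The number of arrays limits the precision, and 1 array per group allows no test within a time. Where a group is undetected, a fold is a bound: the brighter group's mean over the dim group's mean of the higher of its own level and the lowest detected level.

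The annotation gave 1 symbol to 34885 probes, several to 18 and none to 10378. All probes of the 8 genes were described, and list genes were named where they passed in a comparison between arms, at most 5 per list by size, with genes nearest to a member named by r. The members and lists were chosen with earlier results of these data known. All 18 probes matched a gene of the GRCm38.p6 table with 0 symbols changed. Alternatives were the detection filter, background correction, offset, scaling, the authors' matrix, 1 probe per gene, the model terms, an intensity trend and leaving out each array. The pipeline was tested on simulated data. No slide or scan date was given, so neither was tested as a batch.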

Additional observations from a re-analysis of the deposited data

Results flagged for a closer look

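For these probes the difference had opposite signs in the groups compared, each value resting on 1 array against 1 array, so the contrast between groups was not tested. For HFD minus RC, ZT2 and then ZT14 gave -0.11 and 0.65 on the brighter Acot1 probe, and on the Acot7 probes -0.25 and 0.00069 (ILMN_2606180) and -0.18 and 0.15 (ILMN_2632264). For NOB minus HFD, the brighter Acot1 probe gave -0.21 and 0.031, the Acot2 probe ILMN_2840492 -0.19 and 0.10, Acot4 0.10 and -0.11, and Acot12 -0.07 and 0.16. In the same comparison the Acot7 probes gave 0.17 and -0.082 (ILMN_2606180) and 0.24 and -0.10 (ILMN_2632264), and the Acot8 probes 0.10 and -0.33 (ILMN_1250358) and 0.17 and -0.091 (ILMN_2983587).

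For NOB minus RC, the Acot1 probes gave -0.33 and 0.69 (ILMN_3139875) and -0.11 and 0.43 (ILMN_3062267). The Acot7 probe ILMN_2807084 gave 0.38 and -0.0062, and the Acot8 probe ILMN_1250358 gave 0.49 and -0.23. This dim Acot8 probe was undetected on both RC arrays and on the NOB array of ZT14, so its values against RC or with NOB at ZT14 rest on background, and its -0.23 compares a pair of background values. For ZT14 minus ZT2, Acot13 was -0.32 in RC and 0.33 in HFD, and the Acot8 probe ILMN_1250358 was 0.18 in HFD and -0.25 in NOB.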

How the results depend on the processing

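No paired analysis was possible because each arm holds 1 array at each time and the labels carry no replicate numbers; the time enters as a term. The direction of the Acot3 and Acot4 differences from chow in HFD and NOB, and of the called Acot2 difference in HFD, was the same under each alternative that gave a value. Leaving out each array in turn, calls over all probes numbered 116 to 1015 for HFD minus RC (907 with all arrays), 0 to 65 for NOB minus HFD (25), 34 to 230 for NOB minus RC (159) and 1 to 20 for ZT14 minus ZT2 (21). Member probes called then numbered 0 to 4 for HFD minus RC (3) and 0 to 2 for NOB minus RC (2). In the same 4 comparisons, no detection filter gave 55, 0, 1 and 0 calls, 1 probe per named gene gave 585, 14, 85 and 2, and 1 model term gave 505, 14, 37 and 2. No filter and 1 term each left 0 member probes called. NOB minus HFD had 43 calls with median scaling, 38 with cyclic loess and 50 with an intensity trend, which gave 262 for NOB minus RC. The filter on all 6 arrays gave 36 for ZT14 minus ZT2. With median scaling 1 member probe was 1.5-fold apart for NOB minus HFD at ZT14 (0 otherwise). The cause of these shifts was not tested. Some of the alternatives also change the number of features or arrays that are fitted.

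Signs turned for differences that had not passed. Without each array in turn, HFD minus RC ran from -0.18 to 0.71 (Acot1 ILMN_3139875), -0.26 to 0.0015 (Acot7 ILMN_2606180), -0.18 to 0.15 (Acot7 ILMN_2632264, 0.032 with cyclic loess), -0.13 to 0.077 (Acot7 ILMN_2807084) and -0.0096 to 0.52 (Acot8 ILMN_1250358). NOB minus HFD ran from -0.40 to 0.23 (Acot1 ILMN_3139875), -0.16 to 0.066 (Acot2 ILMN_2840492), -0.22 to 0.96 (Acot3), -0.25 to 0.24 (Acot4), -0.080 to 0.18 (Acot7 ILMN_2606180), -0.095 to 0.24 (Acot7 ILMN_2632264), -0.069 to 0.14 (Acot8 ILMN_2983587), -0.40 to 0.17 (Acot8 ILMN_1250358), -0.099 to 0.20 (Acot12) and -0.37 to 0.036 (Acot13). For ZT14 minus ZT2, Acot13 ran from -0.079 to 0.25.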
